A study of Mus musculus with 4 samples.

Results

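Perivascular and leptomeningeal fibroblasts were rare in these brains, with 53 of 32806 barcodes assigned to them. They were chosen on measured values. A barcode was taken if it held at least 500 UMIs (unique molecular identifiers, each standing for 1 captured RNA molecule), 200 to 2500 genes and at most 10% UMIs of mitochondrial genes. It was a member if at least 3 of 11 fibroblast genes had a UMI (*Col1a1*, *Col1a2*, *Col3a1*, *Dcn*, *Lum*, *Bnc2*, *Slc6a20a*, *Slc6a13*, *Slc47a1*, *Ranbp3l* and *Cped1*) and fewer than 3 of 7 endothelial genes did (*Flt1*, *Cldn5*, *Pecam1*, *Cdh5*, *Tek*, *Mecom* and *Ptprb*). These 18 genes are called gate genes, and their levels are given as a description, with no test.

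The study sequenced RNA of single brain nuclei of female 5XFAD mice. In this transgenic strain the Thy1 promoter drives its human transgenes, mutant APP among them, in neurons, and amyloid plaques form with age. Mice aged 7 to 10 weeks received 100 µL with a fixed number of extracellular vesicles (EVs) into a vein, and the vesicles carried either a low (PE-low EVs) or a high (PE-high EVs) content of phosphatidylethanolamine, a membrane phospholipid. Per the study's text, engineered vesicles were rebuilt from the lipids of adipocyte EVs, without their nucleic acids and proteins, and coupled to transferrin. The engineered vesicles it names PE-high and PE-low came from EVs of chow-fed mice, with their PE content set by adding PE. Its methods on RNA velocity, however, call the sequenced groups lean and obese. Elsewhere it gives the name PE-high to vesicles of mice on a high-fat diet. The labels of these libraries give the PE content alone. Each group had 2 libraries of 2 pooled mice, named PE-low 1, PE-low 2, PE-high 1 and PE-high 2 below, and all 4 libraries carried the 5XFAD transgenes. Libraries of mice given saline alone, or of mice without the transgenes, were not analysed here, so each difference is between the vesicle types. The matrices held 41470611, 43272337, 32515094 and 29472021 UMIs in that order.

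Fibroblasts of the brain lie in the leptomeninges (arachnoid and pia) and along larger vessels, between the vessel wall and the limiting membrane of the astrocytes. They lay down collagens, laminins and small proteoglycans, and those of the arachnoid and pia also carry solute transporters and make retinoic acid, prostaglandin D synthase and growth factors. Pericytes and smooth muscle cells, together called mural cells, and endothelial cells lie next to them.

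PE-low 1 yielded 21 fibroblast nuclei of 9281 barcodes, or 0.226% (95% Clopper-Pearson interval 0.140 to 0.346%). PE-low 2 yielded 10 of 7250, or 0.138% (0.0662 to 0.254%). PE-high 1 yielded 12 of 7929, or 0.151% (0.0782 to 0.264%), and PE-high 2 yielded 10 of 8346, or 0.120% (0.0575 to 0.220%). The intervals cover counting error only, and all 4 of them overlap. The mean was 0.182% ± 0.0625 with PE-low EVs and 0.136% ± 0.0223 with PE-high EVs (SD, n = 2 libraries each), and the exact permutation test over libraries gave a two-sided p of 0.667, where the smallest p that 2 against 2 libraries allow is 0.333. With at most 3% mitochondrial UMIs, the limit of the study's own quality filter, 1, 2, 2 and 2 members were left. The difference of PE-high minus PE-low then changed from -0.0465 to 0.0468 percentage points. The difference was -0.197 with 2 gate genes, where the shares were 0.506% and 0.524% with PE-low EVs and 0.252% and 0.383% with PE-high EVs, -0.0790 with at least 1000 UMIs, -0.00768 with nuclei thinned to 500 UMIs and -0.0249 with no mitochondrial limit. Without PE-low 1 it was -0.00235, without PE-low 2 it was -0.0907 and without PE-high 2 it was -0.0308. With 2 or 4 gate genes, 1000 UMIs, 3 outside markers or no members of 3 neuron markers, both PE-low libraries lay above both PE-high libraries, at the smallest p the design allows (exact p = 0.333).

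**Figure D1:**
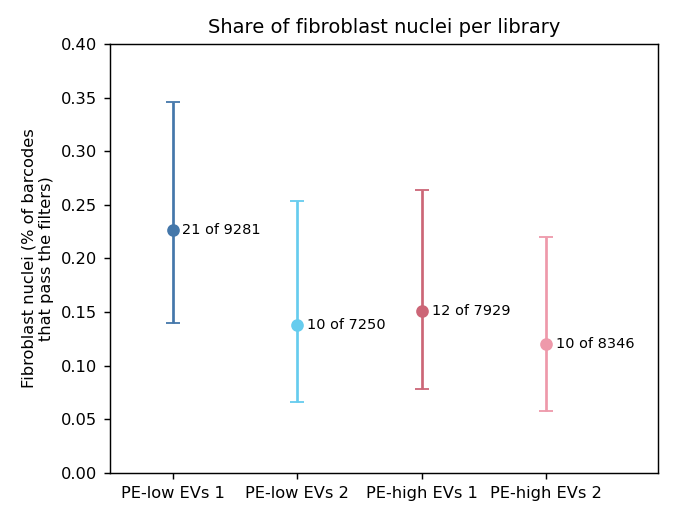
Share of fibroblast nuclei among the barcodes that passed the filters (y axis, %) in each of the 4 libraries (x axis), with 95% Clopper-Pearson intervals and the counts behind each point. PE-low 1 is the highest at 0.226%, and all intervals overlap.

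The members were shallow. Their UMIs summed to 24442, 18176, 18814 and 10504 in PE-low 1, PE-low 2, PE-high 1 and PE-high 2. The median member held 1007, 1436, 1126.5 and 740.5 UMIs, where the median of all other barcodes was 1757, 2201, 1403 and 1444. Median mitochondrial shares of the members were 5.78%, 4.29%, 5.73% and 4.76%. No barcode sequence of a member was shared between libraries. A further 7 barcodes that passed both the fibroblast and the endothelial gate (3, 3, 0 and 1) were left out of the members and stayed among all other barcodes. Barcodes that also passed the mural gate were kept, which were 1 member in PE-low 2 and 1 in PE-high 1.

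The gate rested mostly on *Cped1*, a gene of unsettled function found in 48 of the 53 members (90.6%), on *Slc6a20a*, a proline transporter (28 members, 52.8%), and on *Bnc2*, a zinc finger protein of mesenchymal cells (26 members, 49.1%). *Col1a2*, a chain of type I collagen, had a UMI in 19 members (35.8%), *Ranbp3l* in 18 (34.0%) and the proteoglycan *Dcn* in 15 (28.3%). *Col1a1* had one in 9 (17.0%), *Col3a1* in 6 (11.3%) and *Lum* in 1 (1.89%). *Slc6a13* and *Slc47a1*, transporters of GABA and of organic cations, each had one in 14 members (26.4%). In all other barcodes, *Cped1* had a UMI in 0.968%, *Bnc2* in 0.409% and *Col1a2* in 0.287%. Most members stood close to the threshold: 30 had a UMI in exactly 3 gate genes, 13 in 4, 5 in 5, 4 in 6 and 1 in 7. Just outside it were 84 barcodes with 2 gate genes.

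The label was checked on 29 fibroblast markers that the gate did not use. At least 3 of them had a UMI in 73.3% of the members with exactly 3 gate genes, in 26.2% of barcodes with 2, in 2.83% with 1 and in 0.544% with none. By library, 76.2%, 100%, 83.3% and 50.0% of the members held at least 3, against 1.16%, 1.10%, 0.644% and 0.420% of all other barcodes. Levels are given as CPM, a gene's UMIs as a share of all UMIs of a class in a library, on the counts-per-million scale. Summed over the 29 markers, the level was 16243, 19091, 4518 and 9235 CPM in the members and 366, 342, 320 and 316 in the other barcodes. Near-empty barcodes, of at most 100 UMIs, held 794, 1283, 1007 and 1168, so free RNA carried these genes too, at a level below that of the members in each library. The most abundant marker was *Ptgds* in every library, and 5, 7, 13 and 17 of the 29 markers had no UMI in the members.

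**Figure D2:**
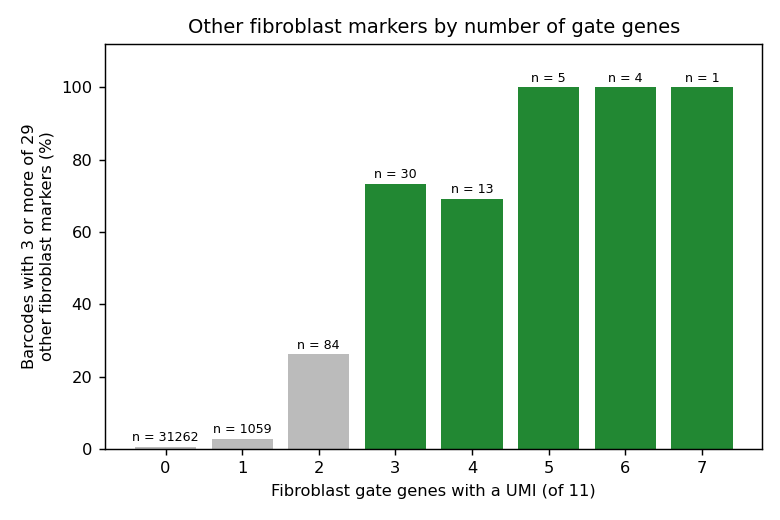
Share of barcodes (y axis, %) with a UMI in 3 or more of 29 fibroblast markers that the gate did not use, against the number of the 11 gate genes with a UMI (x axis), n barcodes above each bar. Green bars are the members, grey bars the barcodes left out, and the share steps from 26.2% at 2 gate genes to 73.3% at 3.

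Members were first set against all other barcodes of the same library, with UMIs summed per library and class and edgeR's quasi-likelihood test with the library as a block. Genes with an adjusted p (Benjamini-Hochberg) under 0.1 count as called, and of 14572 genes tested 965 were called (6.62%), 641 higher in the members (4.40%) and 324 lower (2.22%). The median log2 difference of all genes was -0.20, or 0.88 with the 4260 genes that had no UMI in the members placed at the bound that 3 counts set. This bound is an upper limit for such a gene, so each median that uses it is an upper limit too. It is to be read beside the 0.88 of all genes. Of the genes called, 596 (4.09% of those tested) lay on the same side in 4 of 4 libraries. This split depended on scaling: total UMIs were used, TMM normalization gave 327 higher and 1889 lower with a median of -1.43, and DESeq2 gave 526 higher and 475 lower with a median of -0.01. Without PE-low 1, 393 of 14665 genes were called (329 higher, 64 lower), and without PE-low 2, 450 of 14648 (332 higher, 118 lower). Without PE-high 1, 757 of 14934 were called (463 higher, 294 lower), and without PE-high 2, 693 of 14724 (472 higher, 221 lower). The counts by list below are to be read beside these totals. Of the 965 calls, 1 changed its sign with TMM and none did with DESeq2. Because bulk sums are compared, a higher level means a larger share of the RNA of these nuclei.

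Fibroblast markers outside the gate were called higher for 16 of 22 tested and lower for none, with a median log2 difference of 4.10 (4.27 with genes at 0 at their bound). *Aldh1a2*, the enzyme that makes retinoic acid (chr9:71215789-71296243, plus strand, mm10), stood at 40.9, 715, 159 and 476 CPM in the members of PE-low 1, PE-low 2, PE-high 1 and PE-high 2, from 1, 13, 3 and 5 UMIs. In all other barcodes it was between 0.225 and 0.586, and endothelial and mural nuclei held none. Its members' levels lay above the other barcodes in every library, and PE-low 1 was the lowest (log2 difference 9.58, SE 0.71, adjusted p = 3.56e-38, edgeR). *Slc26a7*, an anion exchanger (chr4:14502430-14621805, minus strand), stood at 655, 165, 319 and 95.2 in the members and at 1.22 or less elsewhere (log2 difference 8.75, SE 0.66). *Fbln1*, an elastic fibre protein, reached a log2 difference of 6.67 (SE 0.69) and the growth factor binding protein *Igfbp2* one of 5.77 (SE 0.64). *Pdgfra*, a receptor of fibroblasts and of oligodendrocyte precursors, had 4, 1, 0 and 2 UMIs in the members and was called with a log2 difference of 2.88 (adjusted p = 0.0240, edgeR).

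Collagens and their processing enzymes were called higher for 8 of 27 tested, basement membrane and adhesion genes for 10 of 22, and proteoglycans, elastic fibre and matricellular genes for 13 of 30. None of the genes tested in these lists was called lower. *Col5a2*, a chain of fibrillar type V collagen (chr1:45374321-45503282, minus strand), stood at 327, 440.1, 159 and 190.4 CPM in the members and between 2.19 and 3.34 in the other barcodes (log2 difference 6.67, SE 0.67). Both PE-low libraries were above both PE-high libraries for it, on counts of 8, 8, 3 and 2. *Nid1*, which links laminin to type IV collagen, stood at 368, 330.1, 106 and 190.4 against 0.731 to 2.46 (log2 difference 7.40, SE 0.70). The small proteoglycan *Fmod* stood at 123, 110.0, 53.2 and 476 and the other barcodes at 0.325 or less, with 1 UMI in each of 11 members (log2 difference 9.28, SE 0.91). *Col8a1* and *Col12a1*, short-chain and fibril-associated collagens, differed by 4.64 and 3.56 on the log2 scale, the collagen receptor *Ddr2* by 5.38, fibronectin (*Fn1*) by 4.78 and the laminin chain *Lama4* by 4.35. *Thsd4* and *Sparc*, both matrix proteins, differed by 3.01 and 2.76. Without PE-low 2, 4 of 27 collagen genes were called higher, and without PE-low 1, 8 of 29 proteoglycan genes. The fitted median log2 difference was 2.32 for collagens, 1.34 for basement membrane and 1.64 for proteoglycans. These hold 5, 6 and 7 genes with no UMI in the members. With those at their upper bound the medians were 2.52, 2.96 and 3.20, where that of all genes was 0.88.

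Solute carriers of the leptomeningeal barrier were called higher for 15 of 30 tested and lower for none, with a median log2 difference of 1.89. *Slc7a11*, the cystine and glutamate exchanger (chr3:49892526-50443614, minus strand), stood at 1514, 825, 372 and 2189.6 CPM in the members and between 17.9 and 22.4 in all other barcodes. PE-high 2 was the highest library and PE-high 1 the lowest, so the spread within the PE-high group was wider than the distance between the groups (log2 difference from other barcodes 5.78, SE 0.46). *Abcg2*, an efflux pump shared with endothelium, differed by 3.32 and the amino acid transporter *Slc38a2* by 3.08 on the log2 scale. Without PE-low 1, 9 of 31 solute carriers were called higher.

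*Ptgds*, prostaglandin D synthase (chr2:25466709-25470046, minus strand), was the most abundant marker, with 280, 257, 26 and 73 UMIs in the members. These were 11456, 14139.5, 1382 and 6949.7 CPM, against 239, 221, 190.0 and 207 in the other barcodes (log2 difference 4.97, SE 0.57, adjusted p = 9.3e-16, edgeR). A total of 35 members held it, but 1 nucleus carried 45.7% of the UMIs of PE-low 1 and another 86.8% of those of PE-low 2. Retinoid and prostaglandin genes were called higher for 6 of 13 tested and lower for none, and for 3 of 13 without PE-low 2.

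Mesenchymal transcription factors were called higher for 12 of 17 tested and lower for none, with a median log2 difference of 3.72. *Eya2*, a transcriptional coactivator and phosphatase, stood at 777, 495, 532 and 381 CPM in the members and between 1.95 and 2.75 in all other barcodes, and endothelial and mural nuclei held none (log2 difference 7.89, SE 0.51). *Tbx15*, a T-box factor of mesenchyme, stood at 491, 110.0, 585 and 190.4 (log2 difference 7.77, SE 0.63). In both groups the first library held more of it than the second. *Zic1*, a factor of the developing meninges, and *Eya1* differed by 4.50 and 3.99. Without PE-low 1, 6 of 16 of these factors were called higher.

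Growth factors, ligands and receptors were called higher for 23 of 45 tested and lower for 1, with a median log2 difference of 2.54 (2.87 with genes at 0 at their bound). *Bmp6*, a bone morphogenetic protein, stood at 614, 880.3, 266 and 1238 CPM in the members, between 10.7 and 17.0 in the other barcodes, and at none in endothelial nuclei (log2 difference 5.66, SE 0.41). The guidance ligand *Sema3d* differed by 4.76 and the receptor *Egfr* by 4.27. Of the genes of fibroblast activation and inflammation, 13 of 21 were called higher and none lower, among them the protease inhibitor *Timp3* (2.51). Without PE-low 2, 12 of 45 growth factor genes and 6 of 20 activation genes were called higher, and with TMM 14 of 45 growth factor genes were.

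Outside these lists, the smallest p-values of genes that were higher went to *Colec12*, a scavenger receptor, *Prg4*, the lubricin of joints and other surfaces, and *Cp*, the ferroxidase ceruloplasmin. *Colec12* stood at 736, 825, 425 and 1047 CPM against 6.32 to 8.79 (log2 difference 6.50, SE 0.42). *Prg4* stood at 81.8, 1100.4, 638 and 95.2 against 1.54 to 2.03 (log2 difference 7.90), from 9 members. The smallest p-values of genes that were lower went to the neuronal genes *Erbb4*, *Cntn5* and *Grik2*. *Erbb4*, the neuregulin receptor of interneurons, had 0, 1, 0 and 0 UMIs in the members and between 922 and 1177 CPM in the other barcodes (log2 difference -6.19, SE 0.92).

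Of 29 lipid genes, 4 were called higher and 1 lower, where 4.40% and 2.22% of all genes tested were. Their fitted median was -0.31, and 9 of them had no UMI in the members. With these at their upper bound the median was 1.15, where that of all genes was 0.88. With TMM, 2 were higher and 6 lower, where TMM called 327 of all 14572 genes higher and 1889 lower. Leaving out 1 library left 1 or 2 lipid genes higher. Apolipoprotein D (*Apod*) stood at 818, 3686, 478 and 1618 CPM against 45.0 to 81.6 (log2 difference 4.48, SE 0.49). *Mgll*, the monoacylglycerol lipase, had 0, 1, 0 and 0 UMIs against 120.2 to 133 CPM in the other barcodes (log2 difference -3.17, adjusted p = 0.0729, edgeR). Of 14 tested genes that make phosphatidylethanolamine or phosphatidylserine, none was called by edgeR. Of all genes tested 6.62% were called, a share at which a list this short can hold none. TMM called 2 of them lower, beside the 1889 of all 14572 genes. Their counts were low: *Etnk1*, ethanolamine kinase, had 4, 8, 4 and 1 UMIs, and *Pisd*, which turns phosphatidylserine into phosphatidylethanolamine in mitochondria, had 0, 0, 1 and 0. Of 24 genes of amyloid precursor processing and clearance, none was called, again beside 6.62% of all genes. TMM called 4 of the 24 lower, again beside 1889 of all 14572 genes. *App* itself stood at 614, 385, 585 and 571 in the members and between 501 and 565 in the other barcodes (log2 difference 0.03, adjusted p = 0.983, edgeR). *Apoe*, the main lipid carrier of the brain, stood at 1637, 2146, 638 and 1714 against 649.8, 530.0, 668 and 505, higher in 3 of 4 libraries (log2 difference 1.31, adjusted p = 0.0766, edgeR). In near-empty barcodes, those of at most 100 UMIs, *Apoe* stood at 1991, 2704, 2680 and 2469 CPM, above the members in every library, and the part of free RNA in its level was not tested.

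**Figure D3:**
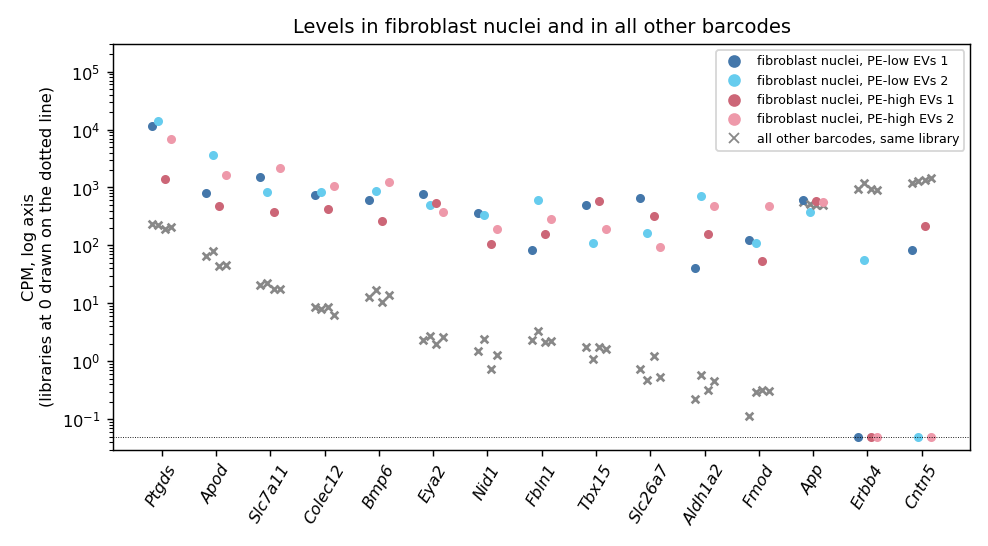
Levels of 15 genes (x axis) in fibroblast nuclei (coloured points, 1 per library) and in all other barcodes of the same library (grey crosses), in CPM on a log axis; libraries at 0 are drawn on the dotted line. For the genes from *Ptgds* to *Fmod* every library of the members lies above the other barcodes, *App* overlaps them, and *Erbb4* and *Cntn5* lie below.

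The members were not all alike. Most members with *Slc7a11* had no UMI of *Slc4a10*, a sodium bicarbonate transporter, and the reverse. The following groups were formed on these 2 genes after their values had been seen, and are a description of single nuclei with no test. *Slc7a11* alone was found in 21 nuclei (8, 4, 2 and 7 in PE-low 1, PE-low 2, PE-high 1 and PE-high 2), *Slc4a10* alone in 16 (7, 2, 6 and 1), both in 4 and neither in 12. The PE-high libraries thus held opposite mixes, 2 and 6 in PE-high 1 against 7 and 1 in PE-high 2. *Slc4a10* is also a neuronal gene, with a UMI in 36.2% of all other barcodes, where *Slc7a11* had one in 2.82%.

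Of the 16 nuclei with *Slc4a10* alone, all 16 held *Bnc2* and the forkhead factor *Foxp1*, 13 held *Slc47a1*, 13 the matrix gene *Adamtsl3*, 11 the calcification inhibitor *Mgp*, 10 *Tbx15*, 10 the guidance ligand *Slit2* and 9 *Slc26a7*. None of them held *Slc6a13*, *Colec12* or *Ranbp3l*, and 1 held *Slc6a20a*. Of the 21 with *Slc7a11* alone, 16 held *Slc6a20a*, 16 *Colec12*, 16 *Apod*, 14 the glutamate transporter *Slc1a3*, 11 *Slc6a13*, 11 *Ranbp3l* and 11 *Bmp6*. None of these held *Slc47a1*, *Adamtsl3*, *Slc26a7* or *Slit2*, 3 held *Bnc2* and 1 held *Mgp*. Gate genes are among those named, and a nucleus had to hold 3 of them to enter. A UMI of *Syt1*, a synaptic vesicle gene that neurons express, was found in 9 of the 16 and in 13 of the 21. Whether they are different cells of the meninges and of the vessel sheath was not tested.

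*Trpm3*, a cation channel gene of the meninges, choroid plexus and some neurons, marked a set of nuclei that overlaps these groups. It stood at 6014, 12104, 1754 and 9901 CPM in the members against 439, 759, 409.5 and 472 in the other barcodes (log2 difference 3.61, adjusted p = 9.86e-10, edgeR). A set of 13 nuclei with at least 10 UMIs of it (4, 3, 2 and 4) carried 467 of its 504 UMIs and 516 of the 636 of *Ptgds*. Of the 13, 7 held *Slc7a11* and 1 held *Slc4a10*. All 13 held the adhesion gene *Alcam*, 12 held *Ranbp3l*, 11 *Slc6a20a* and 11 the metalloprotease *Adam12*, and none held *Slc47a1*, *Slit2* or *Slc26a7*. *Trpm3* is also 1 of 9 markers listed for choroid plexus epithelium, which summed to 154, 222, 33 and 111 UMIs in the members, nearly all of them *Trpm3* (147, 220, 33 and 104). Of the others, *Ttr*, the most abundant transcript of that epithelium, had 4, 1, 0 and 3 UMIs, *Kl* had 2, 0, 0 and 0, *Kcnj13* 1, 1, 0 and 0, *Htr2c* 0, 0, 0 and 4, and *Folr1*, *Clic6*, *Otx2* and *Aqp1* had none.

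**Figure D4:**
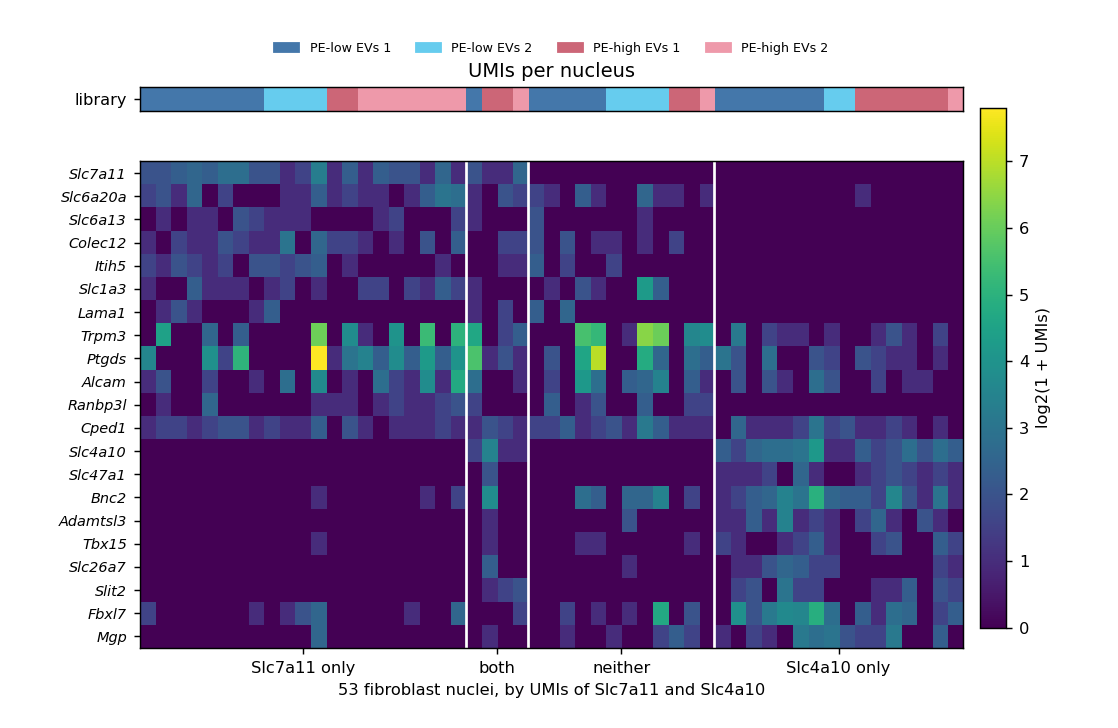
UMIs of 21 genes (rows) in each of the 53 fibroblast nuclei (columns), as log2(1 + UMIs), with the library of each nucleus in the strip above. White lines part nuclei with *Slc7a11* only (21), both genes (4), neither (12) and *Slc4a10* only (16), an order set from the values shown; *Slc47a1*, *Slc26a7* and *Slit2* are dark in the *Slc7a11* block.

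Fibroblasts were next set against their neighbours of the vessel wall. Endothelial nuclei were those with at least 3 of the 7 endothelial gate genes (124, 57, 28 and 29) and mural nuclei those with at least 3 of 9 mural gate genes (18, 15, 10 and 6), each with fewer than 3 genes of the other gates. Gate genes of all classes were left out of these fits. Against endothelial nuclei, edgeR with TMM tested 287 genes and called 94 (32.8%), 43 higher in fibroblasts (15.0%) and 51 lower (17.8%). With total UMIs the split was 31 higher and 63 lower. Without PE-low 1, 90 of 310 genes were lower in fibroblasts.

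*Ptgds* stood at 408, 306, 298 and 483 CPM in endothelial nuclei, below the members in every library (log2 difference 4.53, SE 0.53, adjusted p = 3.85e-05, edgeR). *Adam12* stood at 777, 495, 585 and 857 in fibroblasts and at 12.8 or less in endothelial nuclei (log2 difference 6.55, SE 0.90). *Foxp1* stood at 2455, 2256, 2286 and 1809 in fibroblasts against 827, 638, 661 and 1041, with no overlap between the classes (log2 difference 1.76, SE 0.42). The ubiquitin ligase gene *Fbxl7* stood at 3396, 2256, 1116 and 1142 against 149 to 268 (3.33, SE 0.50), the glypican *Gpc6* differed by 3.42, the guidance receptor *Robo1* by 2.36 and the long noncoding RNA *Mir99ahg* by 3.60.

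Among genes that were lower in fibroblasts, the barrier transporters *Slco1a4* and *Slc2a1*, for organic anions and for glucose, differed by -5.69 and -5.59 on the log2 scale. *Slc2a1* had 0, 1, 0 and 0 UMIs in the members against 872, 1148, 694 and 1078 CPM in endothelium. *Bsg*, a chaperone of lactate transporters that endothelium expresses strongly, stood at 245, 220.1, 159 and 190.4 against 3547, 3699, 3207 and 2826 (-3.76, SE 0.48). *Ly6a* (-6.57) and *Cyyr1* (-6.16), *Cxcl12*, a chemokine (-2.66), *Fn1* (-1.49), *Sema3c* (-3.20), *Igfbp7* (-3.04), *Ebf1*, a transcription factor of mural and endothelial cells (-1.71), and *Pltp*, phospholipid transfer protein (-3.20), were lower too. *Cxcl12* and *Fn1* are listed as a fibroblast marker and a matrix gene, and were above the other barcodes in the members but below endothelium.

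Against mural nuclei, 141 genes were tested and 17 called (12.1%), 8 higher in fibroblasts (5.67%) and 9 lower (6.38%). With total UMIs the split was 6 higher and 10 lower, and with DESeq2 13 higher and 3 lower. Leaving out PE-low 1, PE-low 2, PE-high 1 or PE-high 2 left 8, 4, 7 or 7 calls. *Ptgds* stood at 540.3, 201, 309 and 0 CPM in mural nuclei (log2 difference 4.90, adjusted p = 0.0573, edgeR). *Fbxl7* stood at 125, 100.3, 103 and 0 there (4.58, adjusted p = 0.0208, edgeR). *Foxp1* (1.63), *Robo1* (3.22), *Auts2* (2.14), *Fmnl2*, a formin (2.00), and *Trpm3* (5.35) were higher in fibroblasts. *Trpm3* falls outside the naming rule here and was chosen after its values were seen. *Pdgfrb*, the receptor that pericytes need (-2.97), *Ebf1* (-2.18), *Fry* (-2.21), *Bsg* (-2.29) and *Ptprg* (-1.69) were lower. *Mgp* stood at 777, 990.3, 1222 and 0 in fibroblasts and at 374, 702, 1134 and 489 in mural nuclei, which overlap (0.36, adjusted p = 0.750, edgeR).

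Summed over the members, genes that interferon switches on were high in 3 libraries and low in PE-low 1. Promoters of these genes are known to carry a DNA element of repeated GAAA through which interferons act. A core of GAAA, 2 bases of any kind and GAAA again was searched on both strands. The stretch searched ran from 250 bases before the start of each gene to a short way after it. The core was found in 24 of 44 promoters of the list (54.5%) and in 943 of 27025 RefSeq promoters of the same extent (3.49%). *Ifit1*, which binds viral RNA, and *Gbp7*, a guanylate-binding GTPase, are shown as examples because fibroblasts and endothelium both carried them. *Gbp7* falls outside the naming rule and was chosen after its values were seen. The windows shown hold only the 250 bases before the start. They are from GRCm38.p6 (RefSeq), chr19:34640639-34640888 and chr3:142530086-142530335, both on the plus strand, and capitals mark the core, here read as its reverse complement.
Ifit1: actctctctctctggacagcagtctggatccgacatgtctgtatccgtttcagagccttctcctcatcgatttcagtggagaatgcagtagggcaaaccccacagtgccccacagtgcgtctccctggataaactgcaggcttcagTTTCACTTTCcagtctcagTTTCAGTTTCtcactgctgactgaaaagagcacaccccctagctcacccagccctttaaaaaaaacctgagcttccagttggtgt
Gbp7: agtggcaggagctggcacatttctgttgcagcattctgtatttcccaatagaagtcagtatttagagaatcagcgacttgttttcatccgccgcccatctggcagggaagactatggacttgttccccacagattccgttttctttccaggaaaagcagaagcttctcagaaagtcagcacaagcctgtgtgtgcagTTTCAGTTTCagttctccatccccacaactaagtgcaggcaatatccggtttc
*Ifit1* held 2 matches, the nearest 85 bases before the start, and *Gbp7* held 1, 53 bases before it. A match is a run of letters and no evidence of binding.

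The 60 genes of this list summed to 818, 11553.7, 5315 and 2856 CPM in the members of PE-low 1, PE-low 2, PE-high 1 and PE-high 2, from 20, 210, 100 and 30 UMIs. These UMIs were spread unevenly over nuclei. In PE-low 2, single nuclei held 74, 46 and 43 of the 210, and the nucleus with 46 also passed the mural gate. The largest count of a nucleus was 28 of the 100 in PE-high 1 and 15 of the 30 in PE-high 2. PE-low 1 was low in every class: endothelial nuclei held 1860, 52570, 39975 and 44620, mural nuclei 1247, 19961, 16189 and 31067, and all other barcodes 180, 752, 437 and 493. The pair of PE-low libraries therefore differed more from each other than the groups did, and the part of this library in the results on these genes is given by its removal.

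Against all other barcodes, 27 of 45 interferon genes were called higher in fibroblasts and none lower, with a median log2 difference of 3.39. Without PE-low 1 it was 21 of 50, and without PE-low 2 it was 9 of 40. The members held *Ifit1* at 0, 935, 319 and 286 CPM against 2.08, 46.1, 27.8 and 30.8 (log2 difference 3.81). By rule, *Gm4951*, an interferon-induced GTPase (6.51), *Parp14*, an ADP-ribosyltransferase (4.72), and *Rnf213*, a ubiquitin ligase (4.60), were named. Against endothelial nuclei, none of 8 tested was higher and 3 were lower. *Ifit1* stood at 17.2, 3342, 3538 and 2975 in endothelium (log2 difference -2.57, adjusted p = 0.0033, edgeR), *Gbp5* at 0, 715, 319 and 476 in fibroblasts and, outside PE-low 1, at 4006, 3439 and 5019.7 in endothelium (-2.84), and the antiviral gene *Rsad2* differed by -4.49. Without PE-low 1, 16 of 21 were lower than in endothelium, and without PE-low 2, 1 of 4. Of all genes tested in these 2 fits, 90 of 310 and 40 of 306 were lower.

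**Figure D5:**
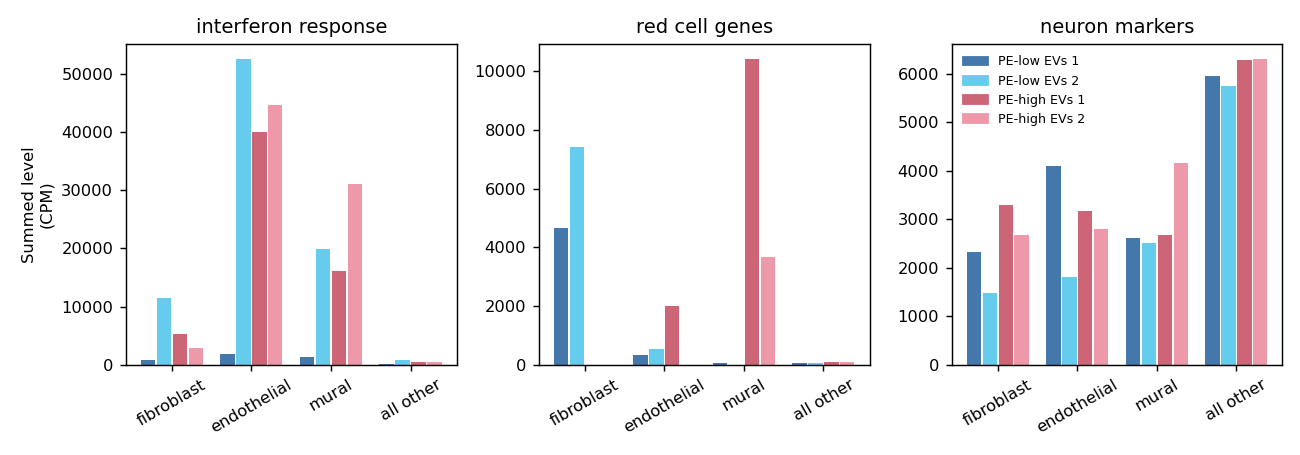
Summed level (y axis, CPM) of interferon-response genes, red cell genes and neuron markers in fibroblast, endothelial and mural nuclei and all other barcodes (x axis), 1 bar per library. Interferon genes are lowest in PE-low 1 in every class, red cell genes of the fibroblasts are found in the PE-low libraries alone, and neuron markers of the fibroblasts lie below those of all other barcodes in each library.

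Markers of other cell types were measured in the members as well. The 12 neuron markers summed to 2332, 1485, 3295 and 2666 CPM, against 5947, 5755, 6279 and 6299 in all other barcodes and 6141, 5938, 5929 and 6411 in near-empty barcodes. *Syt1* was their most abundant gene in every library, with 18, 9, 24 and 10 UMIs, and 4 of 12 were called lower and none higher. With TMM 7 were lower, without PE-low 1 none was, and without PE-low 2 or PE-high 2 there were 2. Of all genes tested in these fits, 1889 of 14572, 64 of 14665, 118 of 14648 and 221 of 14724 were lower. At least 3 neuron markers had a UMI in 5, 3, 6 and 3 members. Endothelial markers had 6, 10, 0 and 2 UMIs over 13 genes, with 1 of 5 tested called higher (*Abcb1a*, the efflux pump P-glycoprotein). Mural markers had 11, 31, 12 and 2 UMIs, mostly *Vtn* (6, 17, 5 and 2), with 4 of 6 called higher (1 of 6 without PE-low 2, and 2 without any other library or with TMM) and *Abcc9* at 0. A single nucleus held 10 of the 31 UMIs in PE-low 2 and another 11 of the 12 in PE-high 1, and these are the 2 members that also passed the mural gate. *Vtn*, vitronectin, and *Pdgfrb* (3, 3, 1 and 0) are also expressed by fibroblasts.

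Microglia markers had 4, 2, 0 and 0 UMIs in the members (*Mrc1* at 0), border macrophage markers 0, 2, 0 and 0, and ependymal markers 1, 0, 1 and 0, with none called. Astrocyte markers had 50, 11, 15 and 11 UMIs, mostly *Slc1a2*, with *Aqp4* at 0, 1, 0 and 1, and the gap junction genes *Gja1* and *Gjb6*, which meningeal cells also use, were called higher. Oligodendrocyte markers had 32, 27, 9 and 10 UMIs and none was called, though TMM called 4 lower, beside 1889 of all 14572 genes. Red cell genes had 114, 135, 0 and 0 UMIs, of which 1 nucleus held 111 in PE-low 1 and 1 held 131 in PE-low 2. Their 4 calls of 5 were all lost without these 2 nuclei. Arachnoid and dural border genes, led by *Mgp*, had 50, 55, 52 and 7 UMIs (4 of 9 called higher), and perivascular and pial genes 74, 36, 23 and 16 (7 of 9 called higher, and 4 with TMM or without PE-low 2 or PE-high 2).

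The comparison the study was built for, PE-high against PE-low EVs, was made on the summed UMIs of the members, 2 libraries against 2. Of 203 genes tested with edgeR and TMM, 1 was called (0.493%), none higher and 1 lower, and 34 had an unadjusted p under 0.05. The groups did not overlap for 86 genes (42.4%). The gene called was *Hbb-bs*, a beta globin of red cells (chr7:103826534-103828096, minus strand). It had 76, 95, 0 and 0 UMIs, or 3109, 5227, 0 and 0 CPM, at least 39.2-fold lower with PE-high EVs when the floor of 3 counts is taken over the group (adjusted p = 0.0873, edgeR). A single nucleus held 97.4% of these UMIs in PE-low 1 and another 97.9% in PE-low 2. In mural nuclei it stood at 41.6, 0, 6393 and 2202, the opposite order of the groups. *Hba-a1*, alpha globin, had 17, 24, 0 and 0 UMIs and missed the threshold with TMM (adjusted p = 0.142, edgeR), but passed it with total UMIs, with DESeq2 and without PE-low 1 or PE-high 2. Without the 2 nuclei of globin, 18 genes were called, 17 of them higher. Leaving out PE-low 1, PE-low 2, PE-high 1 or PE-high 2 left 18, 0, 0 or 13 calls.

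With TMM no gene was called higher, but the split depended on scaling. Total UMIs called 6 higher and 3 lower, and DESeq2 called 3 higher (*Lingo2*, *Lrrtm4* and *Lsamp*) and 2 lower. The smallest p-values of genes that were higher with PE-high EVs were those of *Unc5d*, *Kirrel3*, *Lsamp*, *Lrrtm4* and *Kcnd2*, genes of neuronal adhesion, guidance and excitability that neurons express strongly. *Lsamp* had 3, 2, 21 and 32 UMIs, or 123, 110.0, 1116 and 3046 CPM, against 4162, 5509, 4925 and 4816 in all other barcodes (log2 difference 3.83, adjusted p = 0.142, edgeR). *Lrrtm4* had 0, 2, 39 and 22, of which 1 nucleus held 94.9% in PE-high 1 and 1 held all in PE-high 2. *Unc5d* had 1, 1, 14 and 6 (3.40, adjusted p = 0.12, edgeR), *Kirrel3* 0, 1, 13 and 6 (4.16) and *Kcnd2* 4, 2, 27 and 10 (2.82). In PE-high 1 and PE-high 2, 1 nucleus held 71.4% and 93.8% of the UMIs of *Lsamp*, 85.7% and 50.0% of those of *Unc5d*, 33.3% and 80.0% of those of *Kcnd2* and all of those of *Kirrel3*. All 5 missed the threshold with TMM and passed it with total UMIs or with the replicate number as a block, and *Kirrel3* was at -0.67 with no mitochondrial limit.

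Neuron markers were measured beside these genes. As a list they were not tested, and 2 of the 12 could be tested singly, with none called. The nuclei of 3642 and 3913 UMIs in PE-high 1 and of 3448 UMIs in PE-high 2, which held the largest shares above, had 15, 15 and 8 UMIs of neuron markers and a UMI in 6, 3 and 5 of the 12. The summed level of these markers was 2332 and 1485 CPM with PE-low EVs and 3295 and 2666 with PE-high EVs. *Snap25*, a synaptic membrane fusion protein, had a log2 difference of 1.56 (SE 0.53, adjusted p = 0.236, edgeR) and *Syt1*, the calcium sensor of synaptic vesicles, of 0.61 (SE 0.62, adjusted p = 0.765, edgeR). Without the members that held 3 or more neuron markers, *Lrrtm4* had 0, 2, 0 and 0 UMIs, none of the 5 genes passed the filter on low counts, and edgeR called 0 of 41 genes (1 at an unadjusted p under 0.05).

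In the other direction, *Eif1*, a translation initiation factor, had 16, 10, 1 and 1 UMIs (log2 difference -3.24, adjusted p = 0.142, edgeR). *Ogt*, the O-GlcNAc transferase, had 17, 14, 2 and 1 (-3.01) and *Ror1*, a Wnt receptor, 24, 19, 4 and 2 (-2.53, adjusted p = 0.151, edgeR). Each was lower in both PE-high libraries than in both PE-low libraries and missed the threshold with TMM, although *Eif1* passed with total UMIs, *Ror1* without the 2 nuclei of globin, and all 3 with the replicate number as a block. *Ptgds* had a log2 difference of -1.87 (SE 0.75, adjusted p = 0.298, edgeR). It passed the threshold with the replicate number as a block (-2.24). Leaving out PE-low 1, PE-low 2, PE-high 1 or PE-high 2 gave -2.10, -1.71, -1.07 or -3.53. The difference of *Ptgds* stood at -0.86 without the 2 nuclei of globin and at -0.90 with nuclei thinned to 500 UMIs. It was -0.30 without the members that held 3 or more neuron markers. Apolipoprotein E (*Apoe*) had a log2 difference of -0.95 (SE 0.67, adjusted p = 0.573) and *App* of -0.04 (SE 0.59, adjusted p = 0.987) by edgeR. *Iigp1* (0, 5, 3 and 1 UMIs), *Gbp5* (0, 13, 6 and 5), the transferrin receptor *Tfrc* (0, 0, 1 and 2), *Pdgfra* (4, 1, 0 and 2) and the laminin chain *Lama1* (16, 4, 2 and 0) were too low to be tested. *Tfrc* bears on the vesicles because they carried transferrin.

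With TMM and all 4 libraries, no list held a called gene other than the red cell list. Calls of listed genes outside it were gained with the replicate number as a block (*Ptgds* and *Trpm3*), without PE-low 1 (*Ptgds*, *Apod* and *Trpm3*), without PE-high 2 (*Ptgds*, *Slc1a3* and *Trpm3*) and with at most 3% mitochondrial UMIs (*Gpc6*). Of the fibroblast markers outside the gate 2 could be tested, of the solute carriers 4, of the growth factors 3 and of the interferon genes none. In simulated data with the same totals, 54.9% of 51 genes changed by 2 on the log2 scale were recovered, so a share of differences of that size would be missed at this depth. The simulation changed only genes with enough UMIs in the members and gave all genes the same spread, so the real share missed may be larger.

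Last, the PE-high against PE-low difference in fibroblasts was set against the same difference in all other barcodes with an interaction term, which shares the libraries between both sides. Of 14572 genes, 4 were called (0.0274%), 2 higher and 2 lower (0.0137% each). These were *Lrrtm4* and the leucine-rich repeat gene *Lingo2*, which was at 0, 165, 1329 and 1714 CPM in fibroblasts and at 1641, 2186, 1787 and 2065 in the other barcodes, and the globins *Hbb-bs* and *Hba-a1*. Each of these genes rested on 1 or few nuclei in the group where it was high. Of the UMIs of *Lingo2*, 1 nucleus held 56.0% in PE-high 1 and 1 held all in PE-high 2, the nucleus of 3448 UMIs that held all of *Lrrtm4* there. Without PE-low 1, PE-low 2, PE-high 1 or PE-high 2 the interaction called 1, 1, 5 or 2 genes.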

How the data were processed

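The members and the gene lists were chosen with earlier results of these data known. Nuclei came from frozen brain sections embedded in OCT and were sequenced with 10x 3' v3.1 chemistry. The authors deposited, per library, unfiltered UMI counts per gene and barcode, from Cell Ranger 7.1.0 and mm10 per the submitters' processing notes; whether intronic reads were counted is not given in the sources used here. The deposited gene and barcode lists hold names alone (other than a measurement). No doublet caller was run, and barcodes that passed both the fibroblast and the endothelial gate were left out of the members but kept among all other barcodes. The 2 members that also passed the mural gate were kept.

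UMI counts were summed per library and class and fitted with edgeR 4.0.16 (glmQLFit, filterByExpr, limma 3.58.1, R 4.3.3) and Benjamini-Hochberg adjustment at 0.1, with the library as a block between classes. TMM served the treatment, endothelial and mural fits. For all other barcodes and the interaction, total UMIs were used, chosen after seeing the data because members were much shallower. DESeq2 1.42.0 was an alternative, as were leaving out each library and other filters. P-values measure the spread between these libraries only. On simulated counts, at most 200 genes with enough UMIs in the members were changed by 2 on the log2 scale. All genes were given the same spread, so genes carried by 1 nucleus were not modelled and recovery in the real data may be lower. The fit recovered 75.8% of 182 such genes against all other barcodes, 98.3% of 60 against endothelial and 100% of 34 against mural nuclei. At a change of 4, it recovered 51.4% of 181 in the interaction. False calls in that order were 2 of 140, 5 of 64, 4 of 38 and 6 of 99.

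Genes were named by rule: per list, the 4 with the largest called difference on the same side in 4 of 4 libraries, plus 3 outside the lists in each direction by p, and for treatment the 5 smallest p in each direction plus 9 fixed genes; some genes that the rule names are not reported here. Coordinates are from GENCODE M21, promoters from RefSeq (GRCm38.p6). Counts and figures used Python 3.11.15 with numpy 2.4.6, scipy 1.17.1, pandas 2.3.3 and matplotlib 3.10.9.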

Additional observations from a re-analysis of the deposited data

Results flagged for a closer look

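Each of the 4 genes below changed differently between PE-high and PE-low EVs in fibroblast nuclei than in all other barcodes, by edgeR's interaction test. The fitted log2 difference of differences was -18.65 for *Hbb-bs* (adjusted p = 8.47e-10) and -16.52 for *Hba-a1* (adjusted p = 0.0999); both were at 0 in the PE-high members, so these fitted values are no bound on the change. It was 5.35 for *Lrrtm4* (adjusted p = 0.00558) and 4.41 for *Lingo2* (adjusted p = 0.0634), with 0 UMIs of either in PE-low 1. *Hba-a1* and *Lingo2* were lost under each library left out, and *Lrrtm4* without PE-low 1 or PE-low 2. With DESeq2 *Hbb-bs* alone was called. Both globins were lost without the 2 nuclei of globin, and all of these genes without members of 3 neuron markers.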

How the results depend on the processing

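Of 88 results on named genes, 1299 alternatives were run: 1123 kept direction and side of the threshold, 123 no longer passed, 45 newly passed and 8 changed sign: *Kirrel3* (-0.67) and *App* (0.30) under treatment with no mitochondrial limit, *App* also with DESeq2 (0.0417), with total UMIs (0.19) and without PE-low 1 (range over libraries left out -0.37 to 0.23), and 3 fitted values on next to no UMIs, which are not changes of direction: *Abcg2* at 3% mitochondrial UMIs (-7.81, no UMI in the members) and *Lrrtm4* in the interaction with 4 gate genes (-0.0884, no UMI) and without members of 3 neuron markers (-12.28, 0, 2, 0 and 0 UMIs). The share difference reversed at 3% mitochondrial UMIs (0.0468). The other causes were not tested.

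Calls of the treatment comparison (1 as reported) came to 0 at adjusted p under 0.05, 14 at 3% mitochondrial UMIs, 0 with 4 gate genes, 8 at 1000 UMIs, 2 with no upper gene limit, 0 with nuclei thinned to 500 UMIs, 0 without members of 3 neuron markers (41 genes tested), 3 with no mitochondrial limit, 10 with 3 outside markers, 18 without red cell nuclei, 5 with DESeq2, 5 with no filter, 9 with total UMIs and 0 to 18 leaving out a library. Fewer genes were tested at 3% mitochondrial UMIs (26, with 13 of the 14 calls higher), with 4 gate genes (62) and thinned (25) than as reported (203). The replicate block gave 29 calls (18 higher, 11 lower). Same-numbered libraries correlated at 0.319, but with 2 pairs the numbers were not taken as pairs. Against all other barcodes (965), calls came to 58 at 3% mitochondrial UMIs, 497 with 4 gate genes, 552 at 1000 UMIs, 379 thinned, 2216 with TMM (651 shared) and 393 to 757 leaving out a library. Against endothelium (94) they came to 0, 54, 24 and 28 for the first 4 of these, 163 with no mitochondrial limit, 496 with no filter and 71 to 133 leaving out a library. Against mural nuclei (17) they came to 2 at 0.05, 4 with 4 gate genes, 27 with no upper gene limit, 4 thinned, 31 with no mitochondrial limit, 61 with no filter and 4 to 8 leaving out a library; 3% mitochondrial UMIs and 1000 UMIs could not be fitted there, as a library was empty. The interaction (4) gave 2 at 0.05, 0 at 3% mitochondrial UMIs, 1 with 4 gate genes, 9 at 1000 UMIs, 0 thinned, 0 without members of 3 neuron markers, 1 with no mitochondrial limit, 1 with DESeq2, 2 with TMM, 34 with endothelial nuclei in place of other barcodes and 1 to 5 leaving out a library. Settings on the mitochondrial limit's removal, outside markers, red cell nuclei and scaling were chosen after seeing the data.

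With 10 to 21 nuclei and 10504 to 24442 UMIs a library, 203 genes passed the filter on low counts in the treatment comparison, so that most genes of the lists could not be tested between treatments.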
